A study of Mus musculus with 8 samples.

Results

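Border-associated macrophages are the resident macrophages of the brain's edges, found in the meninges, around vessels and in the choroid plexus. Mrc1, Cd163, Lyve1, Pf4, F13a1, Cbr2 and Folr2 are genes commonly used to tell them from microglia, the macrophages of the brain tissue itself. These 7 marker genes, of 22180 genes with a probe set of their own, were followed in mouse medulloblastomas with and without Cre-conditional deletion of Bcl2l1. Each gene was taken as the probe set whose platform annotation gives its symbol alone, and each of the 7 had exactly 1 such probe set. In outline, Mrc1 was higher in the Bcl2l1-deleted tumours, Pf4 was higher on every Bcl2l1-deleted array without passing the test, and Cd163, Lyve1, F13a1, Cbr2 and Folr2 overlapped between the groups.

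Tumours were harvested at postnatal day 15. The 4 Bcl2l1-deleted tumours have the genotype Math1-Cre/SmoM2/Bcl2l1 f/f, in which floxed alleles of Bcl2l1, which encodes BCL-xL, an inhibitor of apoptosis, are removed by Cre. The 4 control tumours have the genotype Math1-Cre/SmoM2. All 8 share Math1-Cre and SmoM2, so in both groups an active Smoothened drives tumours from granule neuron precursors, the cells in which the Math1 (Atoh1) promoter is active. The promoter places the deletion in that lineage, while macrophages enter these measurements as part of the bulk tumour RNA. The titles and the genotype field gave the groups, since a further field reads Bcl2l1 deleted for all 8 samples. The design text speaks of replicate animals, and each tumour was run on 1 Affymetrix whole-transcript array.

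Values are deposited log2 RMA values. Tumour markers were bright in both groups, with Atoh1 between 11.45 and 11.85 on Bcl2l1-deleted arrays and between 10.94 and 11.53 on control arrays, and Gli1 between 8.06 and 8.35 and between 8.21 and 8.33 on the same arrays. Bcl2l1 itself averaged 5.48 ± 0.15 in Bcl2l1-deleted tumours and 6.84 ± 0.19 in controls (SD, n = 4 each, limma adjusted p = 0.00509). Control replicate 2 stood apart, with an interquartile range of 2.40 over named genes, against 3.59 to 3.66 on the Bcl2l1-deleted arrays and 3.29 to 3.5 on the other controls. The median of 1394 chemosensory receptor genes, which report mostly background in brain, was 3.6 on that array, against 2.79 to 2.92 on Bcl2l1-deleted arrays and 2.94 to 3.09 on the other controls. This background level was below that of all 4 controls on each Bcl2l1-deleted array. The tested genes had a median fitted change of 0.17, and changes below are given relative to that gene, as a log2 change of Bcl2l1-deleted minus control, unless called fitted. The adjusted p beside a change comes from limma and is that of the fitted change. Precision is limited by there being 4 animals in each group, and p-values measure the spread between them.

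The markers fall into 2 kinds. Mrc1, Cd163, Lyve1 and Folr2 encode receptors on the cell surface: Mrc1 is the mannose receptor CD206, which takes up mannose-rich glycoproteins, Cd163 takes up haemoglobin bound to haptoglobin, Lyve1 binds hyaluronan, and Folr2 binds folate. Pf4, F13a1 and Cbr2 encode a chemokine (CXCL4), the catalytic subunit of coagulation factor XIII, which crosslinks fibrin, and a carbonyl reductase. Pf4 and F13a1 are also made by platelets and their precursors, and Lyve1 by lymphatic endothelium. In the mouse brain, border macrophages and microglia share Csf1r and the transcription factor PU.1 (Spi1), and the markers above are low or absent in resting microglia.

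RefSeq promoters (GRCm38.p6, 250 bases before to 50 after the gene's start) were held for 6 of the 7 genes, 8 promoters in all, and Lyve1 had none. The sequences below are those of Mrc1 and Pf4, the genes whose groups did not overlap, and of F13a1 (its second start) and Cbr2, which hold a motif searched. Capitals mark the letters GAGGAAGT, a PU.1 motif, or TGCTGAC, a MAF motif, on either strand.
Mrc1, chr2:14229164-14229463, plus strand: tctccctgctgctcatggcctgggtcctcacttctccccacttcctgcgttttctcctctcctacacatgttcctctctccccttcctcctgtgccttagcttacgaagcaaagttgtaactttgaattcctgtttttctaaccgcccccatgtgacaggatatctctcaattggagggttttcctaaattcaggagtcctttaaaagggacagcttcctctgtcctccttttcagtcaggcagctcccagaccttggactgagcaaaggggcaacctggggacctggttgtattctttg
Pf4, chr5:90772185-90772484, plus strand: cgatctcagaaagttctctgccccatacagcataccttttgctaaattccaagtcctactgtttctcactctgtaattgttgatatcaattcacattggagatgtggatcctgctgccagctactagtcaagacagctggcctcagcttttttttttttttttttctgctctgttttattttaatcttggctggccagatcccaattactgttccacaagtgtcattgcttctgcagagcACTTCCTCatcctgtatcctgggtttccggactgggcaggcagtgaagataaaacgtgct
F13a1, chr13:37049164-37049463, minus strand: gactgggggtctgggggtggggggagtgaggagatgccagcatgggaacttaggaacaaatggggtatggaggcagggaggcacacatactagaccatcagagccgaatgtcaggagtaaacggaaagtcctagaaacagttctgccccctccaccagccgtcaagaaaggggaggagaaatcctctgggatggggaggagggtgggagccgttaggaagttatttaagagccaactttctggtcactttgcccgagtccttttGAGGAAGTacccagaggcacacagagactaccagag
Cbr2, chr11:120731972-120732271, minus strand: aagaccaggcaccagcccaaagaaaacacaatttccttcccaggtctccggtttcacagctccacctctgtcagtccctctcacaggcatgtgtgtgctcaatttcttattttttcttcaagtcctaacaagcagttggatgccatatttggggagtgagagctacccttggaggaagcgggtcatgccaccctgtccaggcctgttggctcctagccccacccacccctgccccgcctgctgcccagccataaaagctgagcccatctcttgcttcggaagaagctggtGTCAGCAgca
Searched on both strands, the PU.1 letters occurred in Pf4 and in the second F13a1 promoter, and in 3.2% of all 32851 promoters. The MAF letters occurred in Cbr2, and in 4.67% of all promoters. The letters TATAAA occurred in none of the 8 promoters, and in 13.6% of all. The Mrc1 promoter held none of these 3 motifs in this window. A match is a description of the letters only.

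Mrc1 had values of 7.65, 7.41, 7.0 and 7.06 on Bcl2l1-deleted replicates 1 to 4, against 6.19, 5.34, 6.10 and 5.83 on control replicates 1 to 4. Every Bcl2l1-deleted array lay above every control array, and the lowest value was that of control replicate 2. The means were 7.28 ± 0.31 in Bcl2l1-deleted tumours and 5.86 ± 0.38 in controls (SD, n = 4 each). The mannose receptor gene thus rose by 1.24 (95% interval 0.76 to 1.73, adjusted p = 0.0140), with a fitted fold of 2.67. Without control replicate 2 the fitted change was 1.24 (adjusted p = 0.00660), against 1.42 with all arrays. Leaving out Bcl2l1-deleted replicate 1 ended the call (fitted change 1.29, adjusted p = 0.0649), as did leaving out replicate 2 (fitted change 1.37, adjusted p = 0.0551). Over its alternatives the adjusted p lay between 0.00133 and 0.0649. In bulk tumour RNA, more cells with the transcript and more transcript per cell cannot be told apart.

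**Figure D1:**
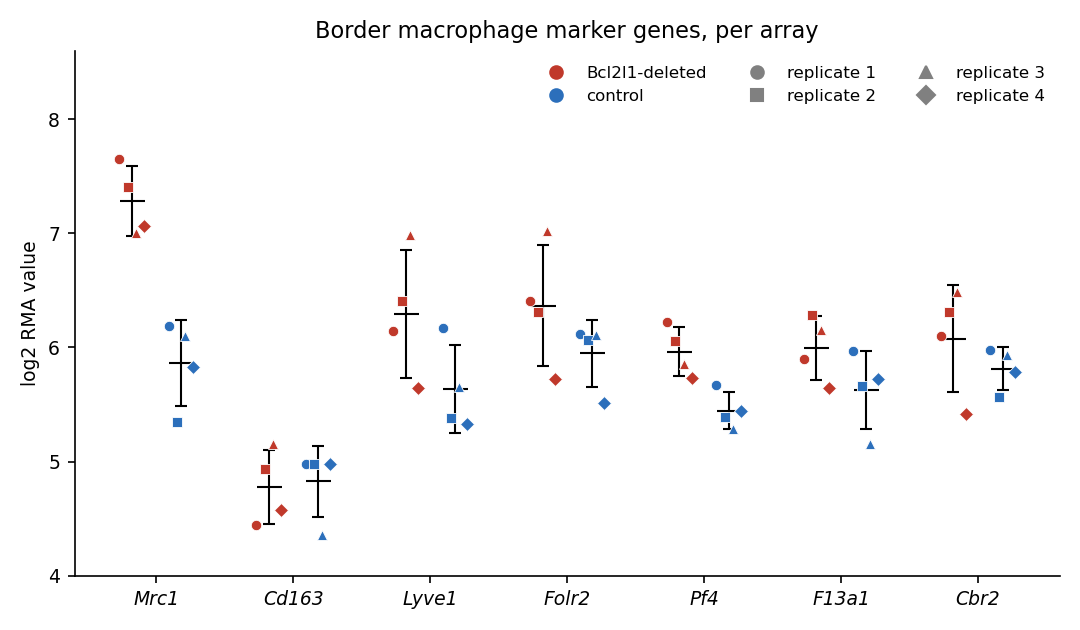
Log2 RMA values (y axis) of the 7 border macrophage marker genes (x axis) on the 4 Bcl2l1-deleted arrays (red, left of each pair) and the 4 control arrays (blue, right), with marker shape giving the replicate and bars the mean ± SD. Mrc1 and Pf4 separate the groups without overlap, and the other 5 genes overlap.

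Cd163, the haemoglobin scavenger receptor, had values of 4.44, 4.93, 5.16 and 4.58 on Bcl2l1-deleted replicates 1 to 4 and of 4.98, 4.98, 4.36 and 4.98 on control replicates 1 to 4. The groups covered nearly the same range. Its change was -0.22 (95% interval -0.68 to 0.24, adjusted p = 0.890), so a rise as large as that of Mrc1 lay outside the interval. Cd163 was also the dimmest of the 7, with 5.74% of the chemosensory receptor genes at or above its mean, against 0.215% to 0.717% for the other 6 genes.

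Lyve1, the hyaluronan receptor, had values of 6.15, 6.41, 6.98 and 5.64 on Bcl2l1-deleted replicates 1 to 4, against 6.17, 5.38, 5.66 and 5.33 on control replicates 1 to 4. Bcl2l1-deleted replicates 2 and 3 lay above all controls, while Bcl2l1-deleted replicate 4 lay within their range. The change of 0.49 did not pass (95% interval -0.14 to 1.11, adjusted p = 0.146). Its interval includes both no change relative to the median gene and values within the interval of Mrc1. The fitted change was 0.66, with a 95% interval, not adjusted over genes, of 0.04 to 1.28.

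Folr2, the macrophage folate receptor, had values of 6.41, 6.31, 7.02 and 5.73 on Bcl2l1-deleted replicates 1 to 4, against 6.12, 6.06, 6.11 and 5.51 on control replicates 1 to 4. Here 3 Bcl2l1-deleted arrays lay above all controls and replicate 4 did not. The change was 0.24 (95% interval -0.32 to 0.81, adjusted p = 0.284).

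Pf4, the chemokine CXCL4, had values of 6.22, 6.06, 5.85 and 5.73 on Bcl2l1-deleted replicates 1 to 4, against 5.67, 5.39, 5.28 and 5.44 on control replicates 1 to 4. The groups did not overlap (exact permutation test, two-sided, p = 0.0286, the smallest that 4 against 4 arrays allow), though the gap between Bcl2l1-deleted replicate 4 and control replicate 1 was small. Its change of 0.35 (95% interval -0.01 to 0.70) did not pass once adjusted over the whole table (adjusted p = 0.0730). The fitted change was 0.52, with a 95% interval, not adjusted over genes, of 0.16 to 0.88. Pf4 passed in 4 of 21 alternatives, and without control replicate 2 its adjusted p was 0.0561.

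F13a1, the factor XIII subunit, had values of 5.90, 6.28, 6.15 and 5.65 on Bcl2l1-deleted replicates 1 to 4, against 5.97, 5.66, 5.16 and 5.72 on control replicates 1 to 4. Bcl2l1-deleted replicate 4 lay below 3 of the controls. The change was 0.19 (95% interval -0.26 to 0.65, adjusted p = 0.246). Cbr2, the carbonyl reductase, had values of 6.10, 6.31, 6.48 and 5.42 on Bcl2l1-deleted replicates 1 to 4, against 5.98, 5.56, 5.93 and 5.78 on control replicates 1 to 4. Its lowest value of all 8 arrays was on Bcl2l1-deleted replicate 4 and its highest on Bcl2l1-deleted replicate 3. The change was 0.09 (95% interval -0.40 to 0.59, adjusted p = 0.427).

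Of the 7 genes, all of which were tested, 1 was higher, none was lower and 6 did not pass, where 4.93% of the 15526 tested genes were called higher and 6.52% in either direction. Without control replicate 2 the same count of 1 was obtained. The groups did not overlap for 2 of the 7, both higher in the Bcl2l1-deleted tumours, where 19% of all tested genes were higher without overlap and 23.4% did not overlap in either direction. The median change of the 7 was 0.24, and 6 of 7 lay above the median gene, as 7763 of 15526 do by construction. The intervals of Cd163, F13a1, Cbr2 and Pf4 lay wholly below that of Mrc1, whereas those of Lyve1 and Folr2 reached into it. Whether the change of Mrc1 differed from those of the others was not tested.

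**Figure D2:**
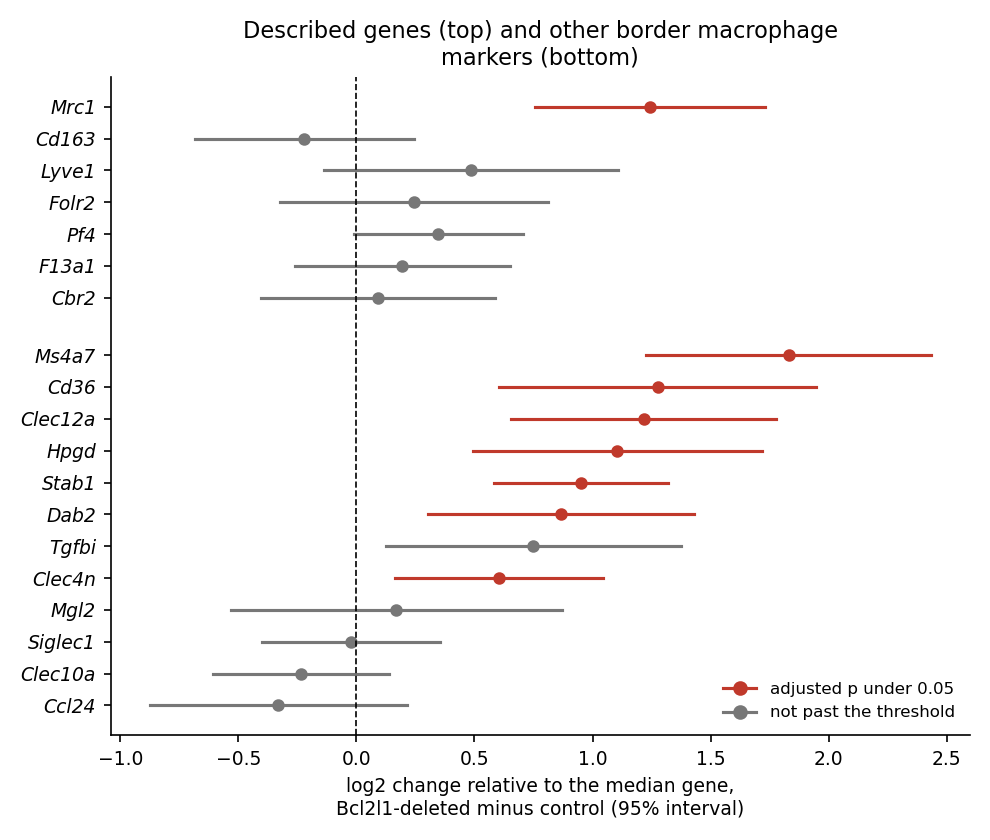
Log2 change of Bcl2l1-deleted minus control relative to the median tested gene (x axis) with its 95% interval, for the 7 described genes (top) and 12 other border macrophage markers (bottom). Red marks an adjusted p under 0.05: Mrc1 alone in the top set, at 1.24, and 7 genes in the bottom set, from Clec4n at 0.60 to Ms4a7 at 1.83.

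The 7 genes did not all move alike across tumours. Over the 8 arrays, Pearson r between pairs ran from -0.26 (Mrc1 and Cd163) to 0.91 (Mrc1 and Pf4), the group difference included. Lyve1 had r = 0.89 with Folr2 and 0.88 with Cbr2. On Bcl2l1-deleted replicate 3 the values of Cd163, Lyve1, Folr2 and Cbr2 were the highest of all 8 arrays, and 5 of the 7 genes had their lowest Bcl2l1-deleted value on replicate 4. Mrc1 and Pf4 had their highest values of all arrays on Bcl2l1-deleted replicate 1, and F13a1 on Bcl2l1-deleted replicate 2. Pf4 was among the genes lowest of the Bcl2l1-deleted arrays on replicate 4, and Mrc1 was not. Among controls, replicate 1 held the highest value for 6 of the 7 genes. The mean of the 7 genes was 6.12, 6.24, 6.38 and 5.69 on Bcl2l1-deleted replicates 1 to 4, against 5.87, 5.48, 5.51 and 5.51 on control replicates 1 to 4, so Bcl2l1-deleted replicate 4 fell within the control range. Markers of macrophages and microglia together were also lowest there among Bcl2l1-deleted arrays, but stayed above all controls. Their mean was 7.85 on that array, 7.94 to 8.08 on the other Bcl2l1-deleted arrays and 6.56 to 7.36 on controls. Homeostatic microglia markers averaged 6.92, 6.96, 7.06 and 6.75 on Bcl2l1-deleted replicates 1 to 4, and at most 6.70 on controls. Phagocytic microglia markers averaged 7.36, 7.30, 7.61 and 7.29, and at most 7.17 on controls. A low replicate 4 was thus not particular to the 7 genes. Xist was high on 2 Bcl2l1-deleted and 3 control arrays, which places animals of either sex in each group, and Mrc1 passed with the Xist level as a covariate (adjusted p = 0.0362).

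**Figure D3:**
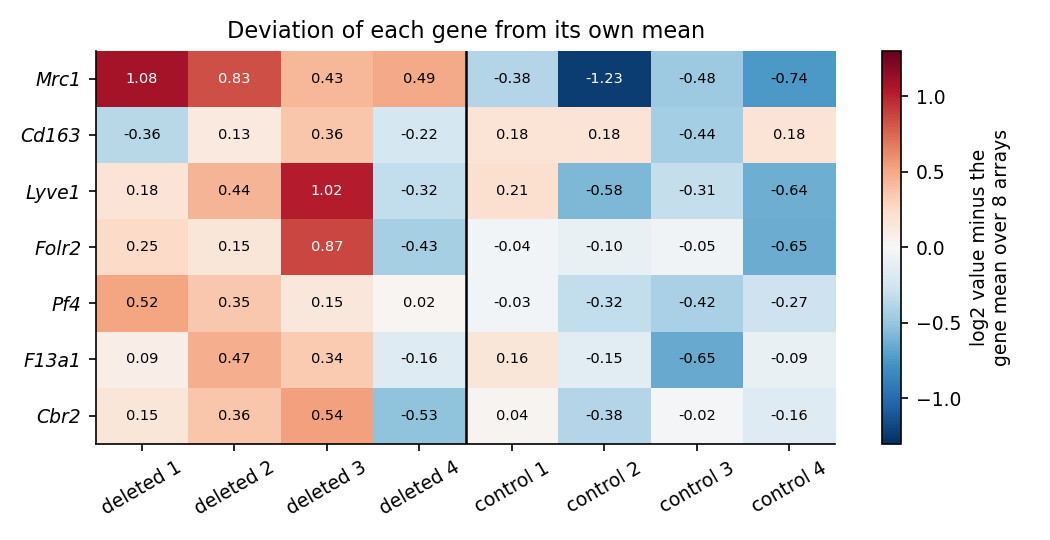
Deviation of each gene's log2 value from its mean over the 8 arrays (colour scale and printed values), with the Bcl2l1-deleted arrays left of the line and the controls right of it. Mrc1 is above its mean on all 4 Bcl2l1-deleted arrays, while Lyve1, Folr2 and Cbr2 are highest on Bcl2l1-deleted replicate 3 and below their means on Bcl2l1-deleted replicate 4.

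By Pearson correlation over the 8 arrays, given as a description, the tested genes most like Mrc1 were Ms4a7 (r = 0.994), a membrane protein gene of border macrophages, Dcn (r = 0.994), the matrix proteoglycan decorin, and Szrd1 (r = 0.992). These correlations include the difference between the groups. Without control replicate 2 they were 0.991, 0.990 and 0.998. Ms4a7 had values of 8.80, 8.56, 8.10 and 8.34 on Bcl2l1-deleted replicates 1 to 4, against 6.88, 5.69, 6.93 and 6.29 on control replicates 1 to 4, the same low array as for Mrc1. The genes most like Pf4 were Rgs16 (r = 0.985), Cep20 (r = 0.974) and Rpa3 (r = 0.965). Those most like Lyve1 were Fgfr2 (r = 0.978), Sfxn5 (r = 0.977) and Abhd3 (r = 0.973). For Folr2 they were Ddo (r = 0.967), Anapc11 (r = 0.954) and Parm1 (r = 0.930), and for Cbr2 Extl1 (r = 0.970), Ppp1r11 (r = 0.956) and Cthrc1 (r = 0.953). For F13a1 they were Prokr2 (r = 0.942), Als2cl (r = 0.933) and Mblac1 (r = 0.927), and for Cd163 Gpr19 (r = 0.962), Amhr2 (r = 0.914) and Gad1 (r = 0.893). None of the 7 genes was among the 3 nearest to another of them. Of the 21 genes so named, Ms4a7, Dcn and Rpa3 were called higher.

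Other genes known from border macrophages included several that rose. Of 14 measured, 12 were tested, of which 7 were higher, none was lower and 5 did not pass, with a median change of 0.81. Of the 12, 9 lay above the median gene. Ccl24, Clec10a and Siglec1 lay below it, at -0.33, -0.23 and -0.02 (adjusted p = 0.673, 0.819 and 0.558). Cd209b and Timd4 lay below the filter on dim genes. Ms4a7 rose by 1.83 (adjusted p = 0.00998), the lipid scavenger gene Cd36 by 1.28 (adjusted p = 0.0272), the C-type lectin gene Clec12a by 1.22 (adjusted p = 0.0190) and Stab1, which encodes the scavenger receptor stabilin-1, by 0.95 (adjusted p = 0.0120). Stab1 had values of 8.03, 7.96, 8.14 and 8.04 on Bcl2l1-deleted replicates 1 to 4, against 6.97, 6.63, 7.29 and 6.80 on control replicates 1 to 4, a narrow spread within the Bcl2l1-deleted group. Leaving out single arrays, the number higher was 0, 1, 4 and 3 for Bcl2l1-deleted replicates 1 to 4 and 7, 7, 5 and 2 for control replicates 1 to 4. Of 6 tested genes of the MHC class II high subset of border macrophages, H2-DMb1 alone was higher (0.53, adjusted p = 0.0385), and H2-Ab1 stood at 0.27 (adjusted p = 0.134) and H2-Aa at 0.30 (adjusted p = 0.196). The median change of those 6 genes was 0.28, the lowest was that of Ciita, at -0.41 (adjusted p = 0.296), and with arrays left out singly 1 gene was higher without control replicate 1 or 2 and none without any other array.

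Genes that border macrophages share with microglia were also higher. Of 18 tested, 12 were higher and 6 did not pass, with a median change of 0.86. Adgre1, which encodes a macrophage surface antigen, rose by 1.23 (adjusted p = 0.0120), the leukocyte phosphatase gene Ptprc (CD45) by 1.02 (adjusted p = 0.0120), Aif1 (IBA1) by 1.12 (adjusted p = 0.0140) and the protease gene Ctss by 1.08 (adjusted p = 0.0140). With arrays left out singly, 0, 2, 6 and 7 were higher for Bcl2l1-deleted replicates 1 to 4 and 16, 15, 10 and 5 for control replicates 1 to 4. Of 12 markers of homeostatic microglia 3 were higher, P2ry13 (1.00, adjusted p = 0.0314), Fcrls (1.00, adjusted p = 0.0371) and Gpr34 (0.70, adjusted p = 0.0415), and the median change was 0.53. P2ry12 stood at 0.94 (adjusted p = 0.0679). Of the 12, 9 lay above the median gene. Siglech, Sparc and Slc2a5 lay below it, at -0.48, -0.30 and -0.20 (adjusted p = 0.270, 0.575 and 0.934). The number of homeostatic markers higher was 0 without any 1 of the Bcl2l1-deleted arrays or control replicate 4, and 5, 3 and 1 without control replicates 1 to 3. Among 11 tested markers of phagocytic microglia, Igf1 (1.2, adjusted p = 0.0120) and Gpnmb (0.92, adjusted p = 0.0415) were higher and the median change was 0.19, while Axl stood at 0.76 (adjusted p = 0.0588) and Cst7 at 0.74 (adjusted p = 0.0996). The lowest of that list was Cd9, at -0.24 (adjusted p = 0.795). With arrays left out singly, 0, 1, 1 and 1 were higher for Bcl2l1-deleted replicates 1 to 4 and 4, 3, 1 and 1 for control replicates 1 to 4.

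The difference between border macrophage and microglia markers was fitted directly, as each gene minus the mean of the 12 homeostatic microglia markers on the same array. On this scale Mrc1 was at 0.73, 0.44, -0.06 and 0.31 on Bcl2l1-deleted replicates 1 to 4, against -0.51, -0.57, -0.51 and -0.28 on control replicates 1 to 4. The groups did not overlap (exact permutation test, two-sided, p = 0.0286), and Mrc1 rose by 0.82 relative to the microglia markers (95% interval 0.37 to 1.27, adjusted p = 0.0215), where 0.747% of tested genes were called higher. That call did not survive leaving out Bcl2l1-deleted replicate 1, Bcl2l1-deleted replicate 2 or control replicate 4 (adjusted p = 0.0859, 0.0697 and 0.0503) and with the median of the markers in place of their mean (0.51, adjusted p = 0.0507). It was also lost against the 18 shared macrophage and microglia genes (0.39, 95% interval -0.12 to 0.90, adjusted p = 0.146). The 12 homeostatic markers did not change alike, from -0.48 for Siglech to 1.00 for Fcrls. Sparc (-0.30) and Slc2a5 (-0.20) also lay below the median gene and lower the change of the mean. Siglech and Slc2a5 were dim, so they say little about microglia, and which cells gave the bright Sparc signal was not tested. The size of the Mrc1 difference thus depends on the markers in the reference. None of the other 6 genes passed against the homeostatic markers, where 19.9% of tested genes were called lower and 20.7% in either direction. Cd163 stood lowest, at -0.64 (95% interval -1.23 to -0.05, adjusted p = 0.0964). Against the shared genes, Cd163, Cbr2, F13a1 and Folr2 were called lower, 4 of the 7, where 79% of all tested genes were called lower, so nothing particular to the 7 genes is read from that count. With the median of the homeostatic markers, Cd163 and Cbr2 were called lower, 2 of the 7, where 66% of all tested genes were. All genes share the subtracted mean in these fits, so their tests are not independent.

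**Figure D4:**
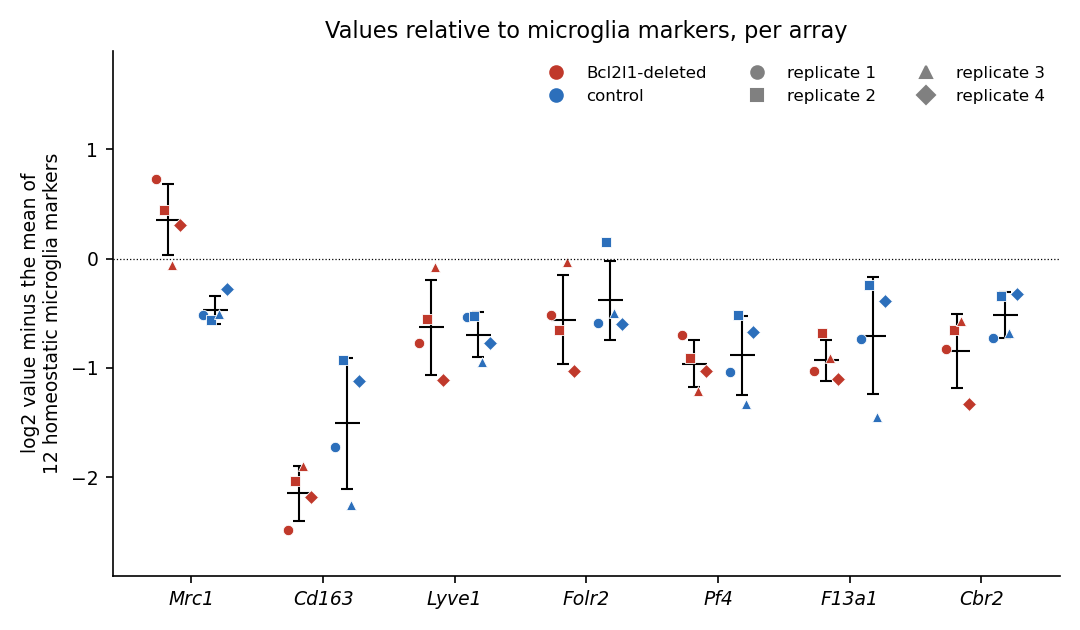
Log2 value of each described gene minus the mean of the 12 homeostatic microglia markers on the same array (y axis), for Bcl2l1-deleted (red, left) and control arrays (blue, right), with marker shape giving the replicate and bars the mean ± SD. Mrc1 is separated, from -0.06 to 0.73 against -0.57 to -0.28, and the other 6 genes overlap.

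Genes related to the 7, or working with them, gave few calls. Slc40a1, the iron exporter ferroportin, rose by 1.09 (adjusted p = 0.0140), the 1 call among 10 tested partners. Without Bcl2l1-deleted replicate 1 or 2 there was none, and without control replicate 1 or 2 there were 3 and 2. Hmox1, which breaks down haem taken up by scavenger receptors, stood at 0.66 (adjusted p = 0.0612), and Blvrb, a biliverdin reductase, at 0.37 (adjusted p = 0.0667). The hyaluronan synthase gene Has2 stood at 0.33 (adjusted p = 0.148). Among 11 tested relatives, Cd44, a hyaluronan receptor related to Lyve1, rose by 0.66 (adjusted p = 0.0180), and Folr1, the folate receptor of choroid plexus epithelium, fell by 1.14 (adjusted p = 0.0219). Folr1 had values of 4.48, 4.51, 4.30 and 4.01 on Bcl2l1-deleted replicates 1 to 4, against 5.59, 5.50, 5.11 and 4.97 on control replicates 1 to 4, opposite to Folr2 in sign. The mean of Folr1 on Bcl2l1-deleted arrays, 4.32, lay below the dim filter of 4.38. Folr1 thus passed that filter through the controls, at 5.29, and the size of its fall is uncertain. Relatives called higher numbered 0 without Bcl2l1-deleted replicate 1 or 2, and 4 and 3 without control replicates 1 and 2, and none was called lower without Bcl2l1-deleted replicate 1, 2 or 4. Tgm2, a transglutaminase of the F13a1 family, stood at 0.33 (adjusted p = 0.0531) and the carbonyl reductase gene Cbr4 at 0.75 (adjusted p = 0.0622). Of 8 tested growth factor and regulator genes 3 were higher, the macrophage growth factor gene Csf1 (1.13, adjusted p = 0.0239) and the transcription factor genes Irf8 (0.77, adjusted p = 0.0140) and Runx1 (0.61, adjusted p = 0.0238), while Il34, the other ligand of the Csf1 receptor, stood at 0.46 (adjusted p = 0.0727). Those 3 calls became 0, 0, 1 and 1 without single Bcl2l1-deleted replicates 1 to 4 and 4, 3, 3 and 1 without single control replicates 1 to 4. A list on alternative activation, the state that interleukins 4 and 13 bring about in cultured macrophages with a rise of Mrc1, gave no call among 5 tested genes, and 4 of its 9 genes (Retnla, Chil4, Il10 and Il4) lay below the filter on dim genes. Of the 5 tested, Arg1 stood at -0.58 (adjusted p = 0.332), Ccl22 at -0.69 (adjusted p = 0.103), Il13 at -0.23 (adjusted p = 0.797) and Il4ra at 0.35 (adjusted p = 0.0905), with a median change of -0.23. Arg1, Ccl22 and Il13 were dim, with means over the 8 arrays of 4.68, 4.40 and 4.50 against a filter at 4.38. Arg1 and Ccl22 were highest on control replicate 2, at 5.84 and 5.06, the array of raised background. Whether the alternative state changed was not tested.

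Markers of the cells that lie beside border macrophages also moved. Of 11 meningeal fibroblast markers 5 were higher, with a median change of 0.96, among them Ogn (1.62, adjusted p = 0.00884), Dcn (1.47, adjusted p = 0.0139), the transporter gene Slc6a13 (1.05, adjusted p = 0.0347) and the transcription factor gene Foxc1 (0.99, adjusted p = 0.0211). The mean of the list lay between 7.30 and 7.80 on Bcl2l1-deleted arrays and between 6.19 and 6.74 on controls. Of 10 blood endothelium markers 5 were higher, with a median change of 0.58, among them Cdh5 (0.73, adjusted p = 0.0140), Esam (0.86, adjusted p = 0.0211), Cldn5 (0.91, adjusted p = 0.0239) and Emcn (1.29, adjusted p = 0.0290). Their mean lay between 6.90 and 7.14 on Bcl2l1-deleted arrays and between 6.0 and 6.54 on controls. With arrays left out singly, fibroblast calls numbered 1, 1, 4 and 3 for Bcl2l1-deleted replicates 1 to 4 and 6, 6, 3 and 2 for control replicates 1 to 4. Endothelial calls numbered 0, 0, 2 and 2 and 5, 5, 3 and 1 over the same omissions. Of 6 tested choroid plexus markers 2 were lower, Ttr, which encodes transthyretin (-5.31, adjusted p = 7.3e-06), and Folr1, dim in the Bcl2l1-deleted tumours. Of all tested genes, 1.6% were called lower. Kl stood at -0.75 (adjusted p = 0.111) and Clic6 at -0.84 (adjusted p = 0.192), and the mean of the 6 lay between 5.61 and 6.05 on Bcl2l1-deleted arrays and between 6.93 and 7.37 on controls. Most of that gap was Ttr, since the mean of the other 5 lay between 5.55 and 6.01 on Bcl2l1-deleted arrays and between 6.12 and 6.55 on controls. Without Bcl2l1-deleted replicate 1, 2 or 4 the number called lower was 1. The part of these neighbouring cells in the change of Mrc1 was not tested.

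Other cell types that make Pf4, F13a1 or Lyve1 were followed by their own markers. Of 9 measured platelet and megakaryocyte markers 6, among them Ppbp, Itga2b and Gp6, lay below the filter on dim genes, and the tested Gp9, Itgb3 and Treml1 stood at -0.65, 0.04 and -0.36 (adjusted p = 0.203, 0.371 and 0.608). Their mean lay between 4.72 and 4.93 on Bcl2l1-deleted arrays and between 4.67 and 5.46 on controls. The 5.46 was that of control replicate 2, the array of raised background. Gp9 and Treml1 were dim, with means over the 8 arrays of 4.72 and 4.94, and were highest on that array, at 5.62 and 5.80. Of 4 lymphatic endothelium markers none passed. Pdpn, which fibroblasts also express, stood at 0.58 (adjusted p = 0.0557), Prox1 at -0.15 (adjusted p = 0.954), Flt4 at 0.00 (adjusted p = 0.487) and Mmrn1 at -0.21 (adjusted p = 0.883). Prox1 was bright, with a mean of 8.71 over the 8 arrays, while Flt4 and Mmrn1 were dim, at 5.08 and 4.59. Whether the Prox1 signal came from lymphatic endothelium was not tested. Of 9 measured monocyte and neutrophil markers 5, among them Ly6c2, S100a8 and Ly6g, lay below the filter, and the 4 tested, Cd177 (-0.76), Vcan (0.37), F10 (-0.63) and Chil3 (-0.75), did not pass (adjusted p = 0.0940, 0.160, 0.226 and 0.382). The chemokine receptor gene Ccr2 of monocytes also lay below the filter. Cd177, F10 and Chil3 were dim, with means over the 8 arrays of 4.58, 4.43 and 4.40. They too were highest on control replicate 2, at 5.36, 5.45 and 5.87. Vcan was bright, with a mean of 8.39, and which cells gave its signal was not tested. The red cell gene Slc4a1 stood at -0.02 (adjusted p = 0.594).

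**Figure D5:**
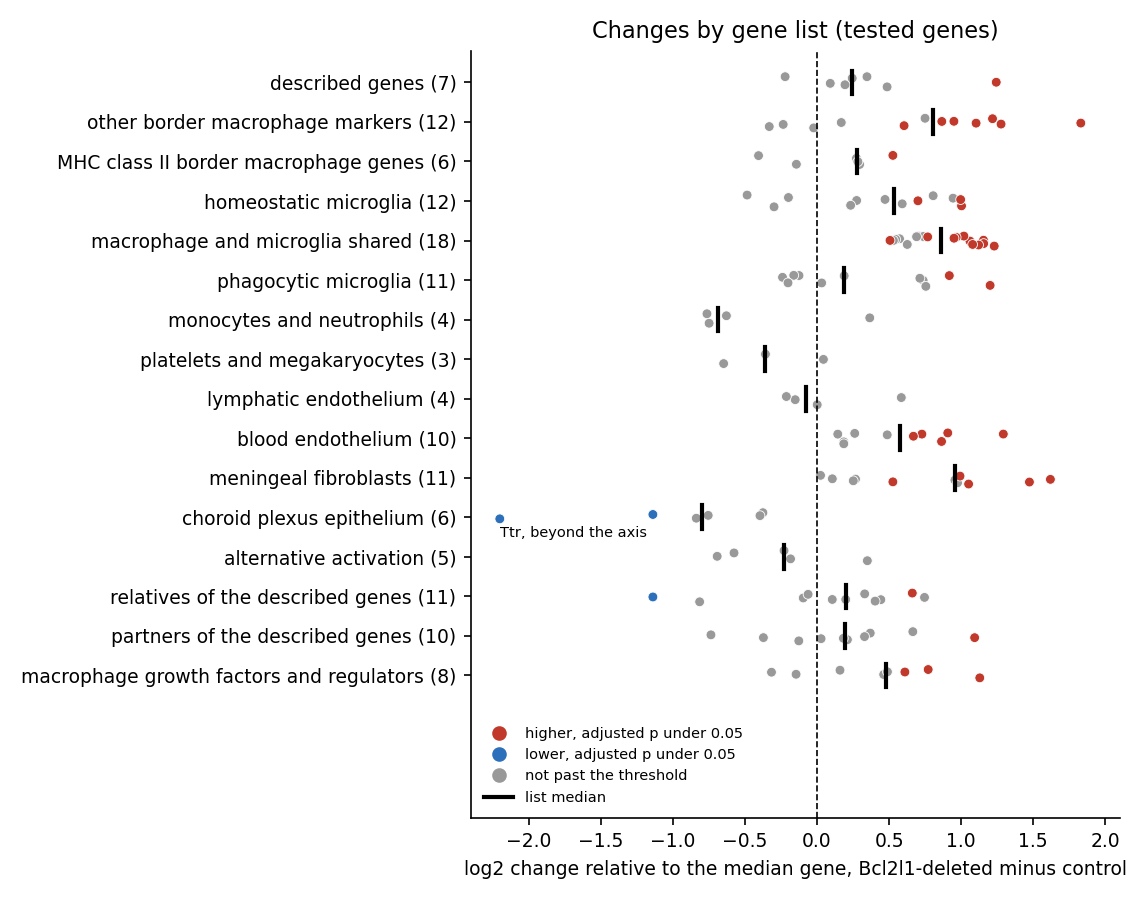
Log2 change relative to the median tested gene (x axis, Bcl2l1-deleted minus control) of each tested gene, by list (y axis, number tested in brackets), with calls in red (higher) and blue (lower) and list medians as bars. The described genes have a median of 0.24, below the 0.81 of other border macrophage markers and the 0.86 of shared macrophage genes. Ttr, at -5.31, is drawn at the left edge.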

How the data were processed

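The members and gene lists were chosen with earlier results of these data known. The authors deposited log2 values, which per the labels are RMA values made in Partek. Its version and options are not stated there. RMA usually subtracts background, equalises the arrays and combines probes. The deposited arrays were not equal, with medians of all probe sets between 4.77 and 4.87 on Bcl2l1-deleted arrays and between 4.90 and 5.17 on controls. A single gene symbol was annotated for 23521 of 41345 probe sets, several for 1814 and none for 16010. A RefSeq table (GRCm38.p6) held 23328 of the 23521 by Entrez identifier and changed 0 symbols. A gene was represented by its probe set of highest mean over the 8 arrays. Genes whose mean did not exceed the 30th percentile (4.38) were left out, which left 15526.

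The difference, Bcl2l1-deleted minus control, was tested two-sided with limma 3.58.1 (R 4.3.3) without covariates, with Benjamini-Hochberg adjustment over the tested genes at 0.05. Single values were compared by exact permutation (70 regroupings). Named genes were the 7 members, Bcl2l1, the up to 4 tested genes with the smallest p in each other list, and the 3 tested genes of highest Pearson r with each member, leaving out predicted genes, small RNAs and chemosensory receptors. Genes outside that rule were chosen after their values were seen. They were Atoh1, Gli1, Xist, Clec4n, Cd9, Ciita, Siglech, Sparc, Slc2a5, Ccl24, Clec10a, Siglec1 and genes below the filter. Tested on simulated data for Bcl2l1-deleted against control (15526 genes), the fit found 93% of genes set to change by 2 on the log2 scale, 44% of those set to 1, and made 9 false calls. Alternatives were other filters, priors, normalizations, covariates, array weights, a replicate block, other probe sets, other microglia references and leaving out each array.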

Additional observations from a re-analysis of the deposited data

Results flagged for a closer look

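Arrays were flagged where the lowest or highest of the 4 values of a group was farther from the nearest other, as a share of the group's range, than Dixon's 95% critical value. Of 172 groups checked (86 named genes in 2 groups), 8 were flagged, close to the 1 in 20 that chance gives.

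Among the 7 markers, Cd163 was low on control replicate 3, at 4.36 against 4.98 to 4.98 on the other controls. Folr2 was low on control replicate 4, at 5.51 against 6.06 to 6.12 on the other controls. Among the other named genes, Cd36 was low on Bcl2l1-deleted replicate 3 (6.11, others 7.11 to 7.21), Gpr34 high on Bcl2l1-deleted replicate 1 (5.91, others 5.55 to 5.61), and Cd44 low on Bcl2l1-deleted replicate 4 (6.19, others 6.32 to 6.34). Flt4 (4.59, others 5.10 to 5.18) and Clic6 (5.54, others 6.45 to 6.55) were low on control replicate 2, and Ddo was low on control replicate 4 (4.75, others 5.37 to 5.41).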

How the results depend on the processing

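Mrc1 kept its direction in all 21 alternatives and its call in 19, with fitted changes between 1.09 and 1.59. The number of the 7 genes called was 2 with quantile normalization, with arrays centred on the median of all probe sets and with array weights, the added gene being Pf4 (adjusted p = 0.0456, 0.0467 and 0.0153). It lay between 0 and 2 when each array was left out, with 2 (Mrc1 and Pf4, adjusted p = 0.0471) without control replicate 1 and 0 without Bcl2l1-deleted replicate 1 or 2. Lyve1, F13a1, Cbr2 and Folr2 stayed positive and uncalled in all 21 alternatives. The fitted change of Cd163, -0.05, turned to 0.13 with quantile normalization, 0.12 with centring on all probe sets, 0.098 with array weights and 0.0027 with the Xist level as a covariate, and lay between -0.20 and 0.063 when each array was left out, always uncalled. Cd163 lay below a dim filter at the 50th percentile.

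Against the microglia markers, the number of the 7 genes called was 4 with the shared list and 2 with the median of the list, all lower, where 79% and 66% of all tested genes were called lower, and between 0 and 2 when each array was left out. There Lyve1 turned from 0.07 to -0.37 with the shared list and -0.25 with the median, and lay between -0.12 and 0.23 when each array was left out. Pf4 lay between -0.22 and 0.049 and Folr2 between -0.35 and 0.0028 in the same way.

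Over all tested genes, 1013 passed, 548 with no dim filter, 3494 with array weights, 200 with the Xist level as a covariate, and between 20 (without Bcl2l1-deleted replicate 1) and 2100 (without control replicate 2) when each array was left out. The split of 765 higher and 248 lower was 1337 and 171 with centring on all probe sets, 390 and 699 with centring on the tested genes, and 273 and 404 after adjusting for the receptor median. No sign of pairing by replicate number was seen. Deviations of same-numbered arrays correlated between -0.135 and 0.053, and no Bcl2l1-deleted array matched the control of its own number best. With 4 arrays in each group and correlations this weak, the check cannot settle whether samples were paired. The replicate block gave 508 genes in all, 1 of the 7 (Mrc1, adjusted p = 0.0247), and 1 against the microglia markers, and it changed no call of the 7. The signal over background limits Cd163 most.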
